A study of Mus musculus with 6 samples.

Results

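Oxidative phosphorylation is the last step of respiration in the mitochondrion. Electrons pass from complex I or complex II through complex III and cytochrome c to complex IV, which hands them to oxygen, and the proton gradient built on the way drives the ATP synthase, complex V. Most subunits are encoded in the nucleus, and for a few of them mammals keep a second gene that is used mainly in male germ cells. In mouse these include Cyct for cytochrome c and Cox6b2, Cox7b2 and Cox8c for complex IV.

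The genes examined here were all symbols of the deposited tables that begin with Nduf, Uqcr, Atp5, Sdha to Sdhd or Cox4 to Cox8, with Cycs, Cyct and Cyc1 added. Names ending in os or containing -ps were left out. This gave 102 of 25165 gene symbols, and 2 pseudogene symbols, Ndufs5-ps and Cox7c-ps1, were left out. Placed by symbol, 38 went to complex I, 4 to complex II, 9 to complex III and 19 to complex IV. Another 17 went to complex V, 2 to cytochrome c and 13 to assembly factors. The 38 include Ndufa11b and Ndufb4c, which are annotated as processed pseudogenes. Ndufa4 and Ndufa4l2 were placed with complex IV, where the Ndufa4 protein is known to reside despite its name. The general partners of the 4 testis isoforms are Cycs, Cox6b1, Cox7b and Cox8a, which cells throughout the body use.

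Testes of C57BL/6 mice aged 8 weeks gave total RNA for 6 libraries, and titles name 3 of them KO and the other 3 WT. The mutants lack the long non-coding RNA Teshl, written NR_038002-/- in the labels, with no Cre or cell type restriction named, and the controls are wild type. The genotype field contradicts the titles for every library, so libraries were grouped by title. The gene of the deleted transcript, 1700027A15Rik, was at 0.385 FPKM in KO-titled replicate 1 and listed at 0 in replicates 2 and 3, against 1028, 989 and 1081 FPKM in the WT-titled libraries, which goes with the titles. Values are FPKM, fragment counts scaled to transcript length and to library depth. From the step between low values, each library was estimated to hold 27600000 to 39200000 fragments, so that 3 fragments on 1 kb equal 0.0765 to 0.109 FPKM. The labels do not say whether each library is a different animal, and the p-values cover only the spread among these libraries. The tissue label was checked against marker genes. The 10 elongating spermatid markers summed to 36876 to 39120 FPKM in KO-titled libraries and 31639 to 35653 FPKM in WT-titled libraries, and the 6 muscle markers summed to at most 0.967 FPKM in any library.

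Respiratory genes were among the more abundant messages of the testis. Over all 6 libraries the members had a median level of 55.1 FPKM, against 7.46 FPKM for the 12952 genes averaging 1 FPKM or more in at least 1 group. Of the 98 members that met this limit, 91 lay above the median gene and 47 lay in the top 10%. The other 4 were Cox4i2, Cox6a2, Cox8b and Ndufaf6. Together the members made up 2.14% of all FPKM in KO-titled libraries and 2.23% in WT-titled libraries. Complex IV had the highest median over its symbols, 169 FPKM, followed by complex V with 102 FPKM, complex III with 72.4 FPKM, complex I with 49.1 FPKM and complex II with 40.4 FPKM. Assembly factors, most of which are needed to build the complexes but are not part of them, had a median of 8.09 FPKM. Cox7a2l, at 47.6 FPKM, was counted with them.

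**Figure D1:**
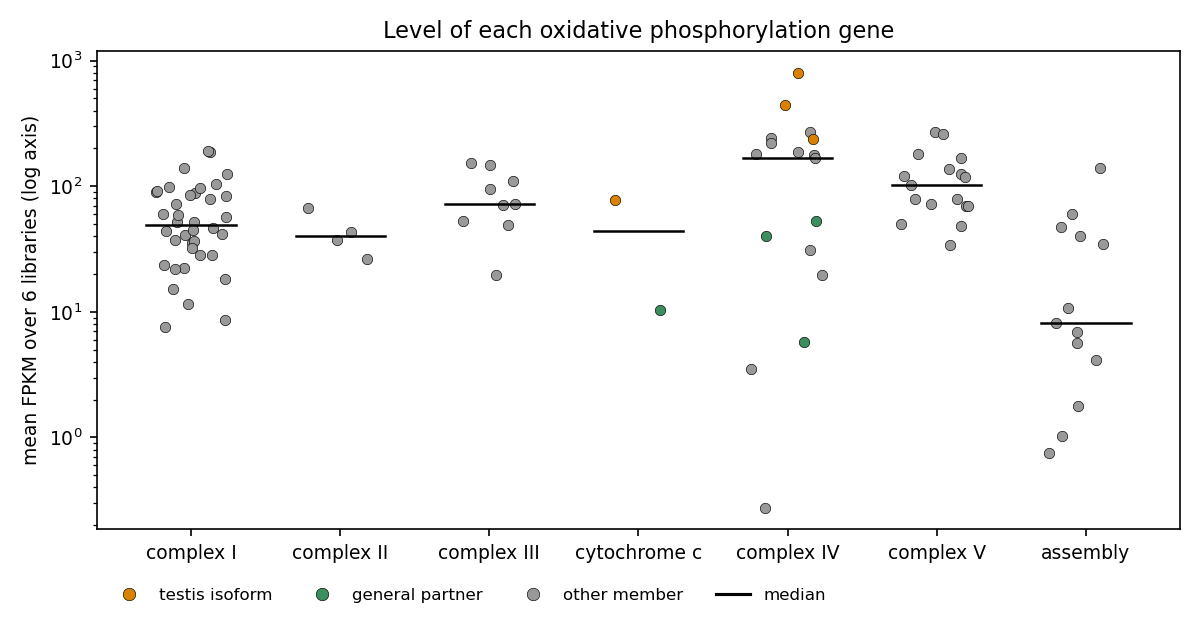
Mean FPKM over the 6 libraries (log axis) of each member, grouped by complex, with the median of each complex as a bar. The testis isoforms of complex IV, at 237 to 804 FPKM, stand far above their general partners, at 5.77 to 52.7 FPKM, and Cox6a2 and Cox8b, listed at 0, cannot be drawn on this axis.

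Levels varied widely within a complex. In complex I, Ndufc1 and Ndufa7, small accessory subunits, were highest at 192 and 187 FPKM, and Ndufa11 was lowest at 7.52 FPKM. The 7 nuclear-encoded core subunits of complex I include the carriers of its flavin and iron-sulphur centres. They lay between 21.8 FPKM for Ndufs1 and 92.1 FPKM for Ndufv2. In complex V the catalytic subunits differed, with Atp5b (beta) at 273 FPKM and Atp5a1 (alpha) at 102 FPKM. The c subunit of complex V is encoded by 3 genes with one mature product, and Atp5g3 led at 69.2 FPKM, followed by Atp5g1 at 50.04 FPKM and Atp5g2 at 34.2 FPKM. In complex III, Uqcr10, a small accessory subunit, was at 154 FPKM and Cyc1, the cytochrome c1 subunit, at 19.6 FPKM. Among assembly factors Ndufaf3, a complex I factor, was far above the rest at 139 FPKM, against 59.8 FPKM for the next, Ndufaf2.

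In every library the testis isoform held most of the message for its subunit. Cox8c, a complex IV subunit gene on chromosome 12 (102899316 to 102900526, plus strand, GRCm38), was the most abundant member. It was at 749, 808 and 790 FPKM in KO-titled libraries, against 855, 812.5 and 812.3 FPKM in WT-titled libraries. Its general partner Cox8a was at 41.2, 36.7 and 37.3 FPKM in KO-titled libraries, against 42.7, 39.3 and 44.8 FPKM in WT-titled libraries. Every KO-titled library thus lay below every WT-titled library for Cox8c, while the groups overlapped for Cox8a. Cox8c made up 95.3% ± 0.462 of the pair in KO-titled libraries and 95.1% ± 0.322 in WT-titled libraries (SD, n = 3 each).

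Cox6b2, which encodes the testis form of a subunit on the intermembrane face of complex IV, lies on chromosome 7 (4751792 to 4753094, minus strand). It was at 417, 430.5 and 454.5 FPKM in KO-titled libraries, against 437, 458 and 449 FPKM in WT-titled libraries. Cox6b1 was at 51.4, 49.3 and 50.1 FPKM in KO-titled libraries, against 55.9, 53.7 and 55.7 FPKM in WT-titled libraries. The groups overlapped for Cox6b2 and did not for Cox6b1, where each KO-titled library was lower. The testis form took 89.6% ± 0.540 of the pair in KO-titled libraries and 89.0% ± 0.437 in WT-titled libraries.

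The widest gap was between Cox7b2, on chromosome 5 (71442824 to 71548205, minus strand), and Cox7b, on the X chromosome (106015700 to 106022450, plus strand). Cox7b2 was at 248.5, 236 and 220.4 FPKM in KO-titled libraries, against 244, 245 and 231 FPKM in WT-titled libraries. Cox7b was at 6.19, 5.65 and 5.76 FPKM in KO-titled libraries, against 5.93, 5.56 and 5.50 FPKM in WT-titled libraries. Groups overlapped for both genes. Over the 6 libraries the mean of Cox7b2 was 41.2 times that of Cox7b, and its share of the pair was 97.6% ± 0.107 in KO-titled libraries and 97.7% ± 0.0789 in WT-titled libraries.

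Cytochrome c carries electrons from complex III to complex IV and also starts the apoptotic caspase cascade. Its testis gene Cyct, on chromosome 2 (76353942 to 76360450, minus strand), was at 76.7, 82.8 and 80.4 FPKM in KO-titled libraries, against 78.1, 70.6 and 78.9 FPKM in WT-titled libraries. The somatic gene Cycs, on chromosome 6 (50562563 to 50566538, minus strand), was at 10.8, 10.1 and 9.89 FPKM in KO-titled libraries, against 10.5, 10.3 and 10.9 FPKM in WT-titled libraries. The groups overlapped for both, and Cyct held 88.6% ± 0.817 of the pair in KO-titled libraries and 87.8% ± 0.474 in WT-titled libraries. Annotated transcripts of Cycs reach 3123 bases and the single transcript of Cyct has 655, and this share depends on the length used for FPKM, a choice not given in the sources used here.

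**Figure D2:**
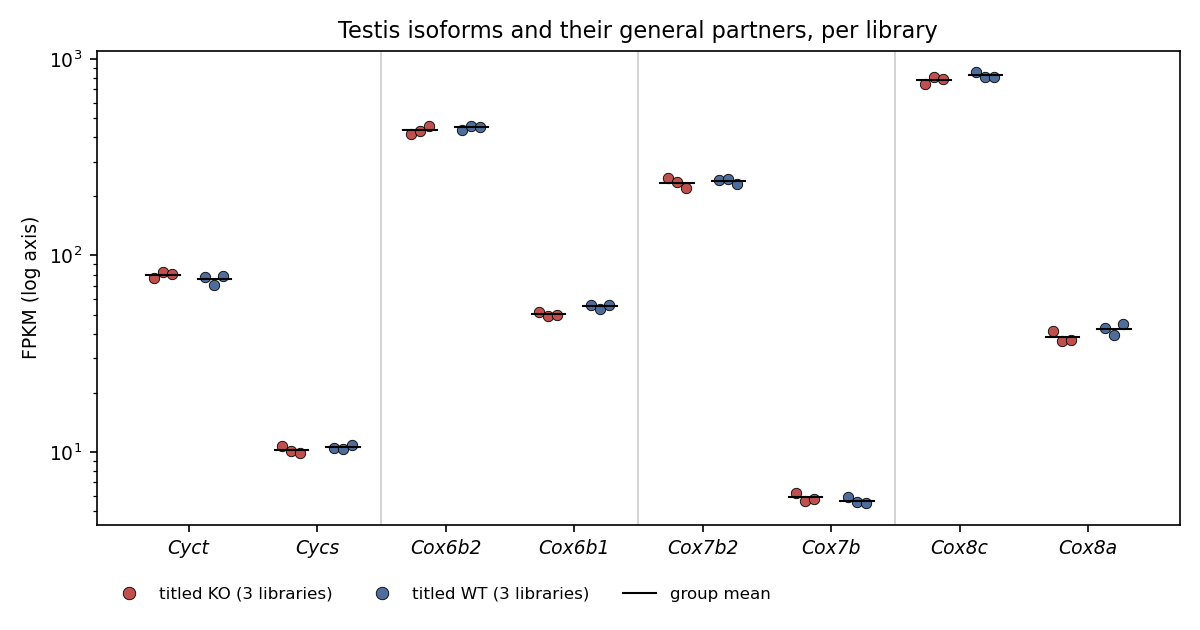
FPKM (log axis) of the 4 testis isoforms and their general partners in each library, KO-titled libraries to the left of WT-titled libraries, with group means as bars. Each testis isoform lies above its partner in all 6 libraries, by 7.48-fold for Cyct, 8.37-fold for Cox6b2, 20.0-fold for Cox8c and 41.2-fold for Cox7b2 on the means over all libraries.

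The balance within each pair was compared between the groups as a log2 ratio of testis over general isoform, computed on FPKM + 1 within each library. It was 2.85 ± 0.11 in KO-titled libraries and 2.73 ± 0.06 in WT-titled libraries for Cyct over Cycs (SD, n = 3 each), a difference of 0.12. The ratio of Cox6b2 over Cox6b1 was 3.08 ± 0.08 in KO-titled libraries and 3.001 ± 0.06 in WT-titled libraries, a difference of 0.08. For Cox7b2 over Cox7b it was 5.10 ± 0.06 in KO-titled libraries and 5.18 ± 0.05 in WT-titled libraries, a difference of -0.07. For Cox8c over Cox8a it was 4.32 ± 0.14 in KO-titled libraries and 4.26 ± 0.10 in WT-titled libraries, a difference of 0.06. The groups overlapped in all 4 ratios, with two-sided exact permutation p = 0.3, 0.2, 0.2 and 0.5 in that order, or 0.4, 0.4, 0.4 and 0.5 after Benjamini-Hochberg adjustment over the 4 pairs. A comparison of 3 against 3 libraries allows no p under 0.1, so this test cannot pass the threshold.

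The bases just upstream of the annotated starts are shown for the cytochrome c pair and for the pair with the widest gap, since both genes of a pair encode the same subunit at very unequal levels. RefSeq sequences on GRCm38.p6 were found for 82 of the 102 members. Each line gives 200 bases 5′ to 3′ on the gene's strand, ending at the base before the start. Capitals mark matches on either strand to TGACG, the half-site of the cAMP response element.
Cyct (chr2:76360454-76360653, minus strand): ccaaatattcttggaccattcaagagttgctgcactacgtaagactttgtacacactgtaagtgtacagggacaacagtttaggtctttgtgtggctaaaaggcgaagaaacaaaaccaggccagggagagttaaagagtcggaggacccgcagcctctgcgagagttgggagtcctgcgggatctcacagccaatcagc
Cycs (chr6:50566570-50566769, minus strand): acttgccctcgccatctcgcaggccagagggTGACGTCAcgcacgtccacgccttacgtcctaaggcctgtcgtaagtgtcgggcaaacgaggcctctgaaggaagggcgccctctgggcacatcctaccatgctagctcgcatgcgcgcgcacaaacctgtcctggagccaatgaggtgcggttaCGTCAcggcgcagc
Cox7b2 (chr5:71548206-71548405, minus strand): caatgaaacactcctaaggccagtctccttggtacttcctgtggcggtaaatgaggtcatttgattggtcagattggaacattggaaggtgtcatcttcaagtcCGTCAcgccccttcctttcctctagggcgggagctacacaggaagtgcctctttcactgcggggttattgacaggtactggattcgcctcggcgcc
Cox7b (chrX:106015500-106015699, plus strand): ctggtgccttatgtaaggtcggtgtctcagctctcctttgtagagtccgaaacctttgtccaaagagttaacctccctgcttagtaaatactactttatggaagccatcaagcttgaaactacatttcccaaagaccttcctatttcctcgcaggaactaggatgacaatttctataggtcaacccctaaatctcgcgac

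The windows of the cytochrome c pair differ in base composition. The window of Cycs holds 19 CpG dinucleotides and 63.0% G and C, and that of Cyct holds 6 and 49.5%. Cycs has 3 half-sites, of which 2 overlap in one palindrome, and Cyct has none in these letters. Cox7b2 has 8 CpG dinucleotides and 1 half-site, and Cox7b has 5 and 0. The half-site was present in 15.8% of 27025 RefSeq windows of this length and in 24 of the 82 members (29.3%). Searches on both strands for a core of the NRF1 motif and for an ETS core bound by GABPA, CCGGAAG, matched 13 of the 82 members each (15.9%), against 3.61% and 6.45% of all windows. All 3 motifs contain CpG, and the windows of members held a median of 13 CpG dinucleotides, against 5 over all windows. Both factors are known regulators of respiratory genes. Neither core was present in these exact letters in the 4 windows shown. Sites that differ from these letters were not sought, and a match is a description of letters.

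Isoforms known from other tissues ran from listed zeros to a mean of 19.7 FPKM. Cox6a2 and Cox8b, which replace Cox6a1 and Cox8a in heart and skeletal muscle, were listed at 0 in all 6 libraries. Surf1 and Cox20, assembly factors that every cell uses, were also listed at 0 throughout, so these zeros are reported only as listed. Cox4i2, the lung and hypoxia form of subunit 4, was at 0.299, 0.164 and 0.365 FPKM in KO-titled libraries, against 0.261, 0.511 and 0.0571 FPKM in WT-titled libraries, while Cox4i1 averaged 270.3 FPKM over all libraries. Cox7a1, the heart and muscle form of subunit 7a, was at 5.47, 3.05 and 2.46 FPKM in KO-titled libraries, against 2.65, 3.55 and 3.72 FPKM in WT-titled libraries. KO-titled replicate 1 was the high library, and the groups overlapped. Cox7a2, the liver form of subunit 7a, averaged 186 FPKM over all libraries.

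Ndufa4l2, a hypoxia-induced relative of Ndufa4, was at 15.3, 18.9 and 19.8 FPKM in KO-titled libraries, against 20.1, 21.4 and 22.9 FPKM in WT-titled libraries. Each KO-titled library was lower, and its log2 fold change of -0.24, with an SE of 0.09 (limma adjusted p = 0.294), was the most negative of any tested member. Ndufa4 itself was at 30.9 ± 1.51 FPKM in KO-titled libraries and 31.1 ± 1.57 FPKM in WT-titled libraries (SD, n = 3 each).

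Differences between the groups were then tested on log2(FPKM + 1) over all 12952 genes. No member passed: 0 of 98 tested members were higher and 0 lower in KO-titled libraries by limma with Benjamini-Hochberg adjustment at 0.05. The background was 1.15% of all tested genes called, 0.788% higher and 0.363% lower. Without adjustment, at p under 0.05, 0 members were higher and 16 lower (16.3%), where all tested genes gave 5.38% higher and 8.89% lower. This count depended on scaling and on single libraries. With libraries scaled to equal totals it was 1 higher and 18 lower of 99 tested (18.2%), where all genes gave 5.33% higher and 9.93% lower. With median-of-ratios scaling it was 3 higher and 8 lower (8.16%), where all genes gave 8.51% higher and 4.85% lower. With upper-quartile scaling it was 10 lower (10.2%), where all genes gave 6.06% lower. Without KO-titled replicate 2 it was 7 lower (7.14%), where all genes gave 4.75% lower, and without WT-titled replicate 3 it was 10 lower (10.2%), where all genes gave 6.85% lower. It was 12 to 16 lower with any other library left out. The smallest limma adjusted p was 0.136, for Atp5a1. All log2 fold changes lay between -0.24 and 0.21, and 68 members were within 0.1 of 0. For 95 of the 98 the 95% interval of the log2 fold change stayed within 0.5 on either side, the exceptions reaching -0.75 and 0.68. No gene counts were given, so a count test was not run.

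The median log2 fold change of the members was -0.04, and that of all tested genes was also -0.04. Negative values were found in 73 of 98 members (74.5%) and in 65.7% of all tested genes. Rescaling moves all genes alike. With median-of-ratios scaling 46 of 98 members were negative, and the median was 0.0028 over members and -0.0030 over all tested genes. With upper-quartile scaling 55 were negative, and the medians were -0.011 over members and -0.016 over all tested genes. With equal totals 74 of 99 were negative, and the medians were -0.056 over members and -0.057 over all tested genes. In 20 members (20.4%) all KO-titled libraries lay below all WT-titled libraries, and in 1 (1.02%), Uqcrq, all lay above. The shares over all tested genes were 15.8% below and 5.92% above. The members' summed level was 8657 to 8695 FPKM in KO-titled libraries and 8733 to 9199 FPKM in WT-titled libraries. Markers of several testis cell types also differed in level, and their part in the members' values was not tested. Elongating spermatid markers summed to 9.36% of all FPKM in KO-titled libraries and 8.33% in WT-titled libraries. At an unadjusted p under 0.05, 4 of the 10 were higher and 0 lower, and limma called 0. Most of the difference in this sum lay in Prm1, Prm2 and Tnp2. They averaged 10218, 8837 and 6615 FPKM in KO-titled libraries, against 8608, 7733 and 5207 FPKM in WT-titled libraries. The median log2 fold change of the 10 was 0.06, with 8 positive and 2, Odf1 and Smcp, negative. The 8 spermatogonial markers summed to 45.04 to 50.6 FPKM in KO-titled libraries and 51.6 to 59.9 FPKM in WT-titled libraries, with 2 of the 6 tested lower at an unadjusted p under 0.05 and 0 called by limma. Of somatic cells, the 8 Leydig cell markers were all negative, with a median log2 fold change of -0.16, and summed to 1493 to 1736.0 FPKM in KO-titled libraries and 1667 to 1736.0 FPKM in WT-titled libraries. Of 7 tested Sertoli cell markers 6 were negative, and the 10 of the list summed to 422 to 468 FPKM in KO-titled libraries and 447 to 501 FPKM in WT-titled libraries. The 6 peritubular markers summed to 168 to 172 FPKM in KO-titled libraries and 146 to 161 FPKM in WT-titled libraries. Of these 4 were negative, and Actg2 alone was at 140 to 146 FPKM, against 115 to 132 FPKM. Spermatocyte markers summed to 2525 to 2656 FPKM in KO-titled libraries and 2412 to 2540 FPKM in WT-titled libraries, with 6 of 10 positive. Round spermatid markers hardly differed, at 1207 to 1328 FPKM in KO-titled libraries and 1193 to 1309 FPKM in WT-titled libraries, with 5 of 8 positive. Macrophage markers summed to 23.3 to 26.4 FPKM, against 24.6 to 30.6 FPKM in WT-titled libraries, with 5 of 6 negative. Blood markers summed to 59.9 to 95.9 FPKM, against 69.5 to 91.6 FPKM in WT-titled libraries. In bulk tissue, fewer cells of a type and less RNA per cell cannot be told apart.

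**Figure D3:**
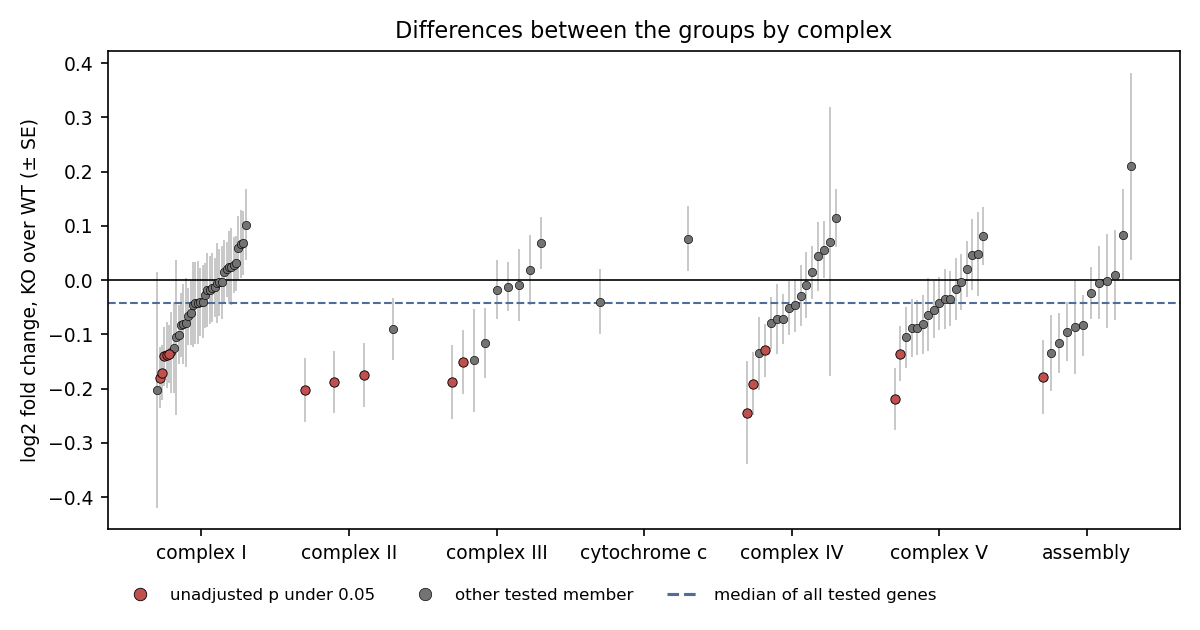
Log2 fold change (KO-titled libraries over WT-titled libraries, ± SE from limma) of each tested member by complex, with members at an unadjusted p under 0.05 in red and the median of all tested genes, -0.04, as a dashed line. All 16 red points are negative, and all 4 genes of complex II lie below the dashed line.

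Complex II, succinate dehydrogenase, couples the citric acid cycle to the respiratory chain and is the one complex of the chain with no subunit encoded in mitochondrial DNA. All 4 of its genes had negative values, with a median log2 fold change of -0.18, and 3 of the 4 lay below WT-titled libraries without overlap. Over all tested genes 65.7% were negative and 15.8% lay below without overlap. None of the 4 was called by limma. Sdhc, which encodes a membrane anchor, was at 42.1, 39.1 and 40.1 FPKM in KO-titled libraries, against 44.1, 49.2 and 47.0 FPKM in WT-titled libraries. This gave a log2 fold change of -0.20 with an SE of 0.06 (limma adjusted p = 0.183). Sdhd, the other anchor, was at 24.6, 24.3 and 25.3 FPKM in KO-titled libraries, against 26.7, 28.8 and 29.5 FPKM in WT-titled libraries (log2 fold change -0.19, limma adjusted p = 0.199). Sdhb, the iron-sulphur subunit, was at 64.4, 59.2 and 64.8 FPKM in KO-titled libraries, against 67.4, 73.0 and 72.7 FPKM in WT-titled libraries (log2 fold change -0.17, limma adjusted p = 0.237). Each KO-titled library was below each WT-titled library for these 3 genes. Sdha, the flavoprotein that oxidises succinate, was at 36.0, 34.4 and 37.6 FPKM in KO-titled libraries, against 36.7, 39.6 and 38.9 FPKM in WT-titled libraries, and the groups overlapped (log2 fold change -0.09, limma adjusted p = 0.476). The 4 genes summed to 164 ± 6.10 FPKM in KO-titled libraries and 184 ± 8.49 FPKM in WT-titled libraries (SD, n = 3 each), or 88.9%. Their median stayed between -0.22 and -0.14 under the other scalings and with each library left out.

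In complex V the catalytic head genes had the most negative values. Atp5a1, the alpha subunit, was at 99.0, 88.7 and 94.9 FPKM in KO-titled libraries, against 110.7, 112.9 and 105.5 FPKM in WT-titled libraries. This gave a log2 fold change of -0.22 with an SE of 0.06 (95% interval -0.35 to -0.09, limma adjusted p = 0.136). Atp5b, the beta subunit, was at 264, 255 and 260.4 FPKM in KO-titled libraries, against 277.3, 303 and 277.1 FPKM in WT-titled libraries (log2 fold change -0.14, limma adjusted p = 0.284). The groups did not overlap for either. Atp5l, subunit g of the membrane part, had the most positive value of the complex (log2 fold change 0.08, limma adjusted p = 0.484), and the groups overlapped. Of the 17 genes of complex V 13 were negative, with a median of -0.04, the same as all tested genes. In 3 of the 17 all KO-titled libraries lay below. Over all tested genes 65.7% were negative and 15.8% lay below without overlap.

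In complex I values differed between core and other subunits, a difference that was not tested. The 7 nuclear-encoded core genes had a median log2 fold change of -0.12, with 6 negative. The 31 other symbols had a median of -0.02, with 22 negative. Ndufs3, a core subunit, was at 53.0, 53.9 and 53.5 FPKM in KO-titled libraries, against 58.6, 59.4 and 62.9 FPKM in WT-titled libraries (log2 fold change -0.17, SE 0.05, limma adjusted p = 0.190). Ndufs8, an iron-sulphur subunit, was at 26.6, 25.7 and 27.9 FPKM in KO-titled libraries, against 29.5, 31.4 and 30.4 FPKM in WT-titled libraries (log2 fold change -0.18, limma adjusted p = 0.204). Ndufs1, the largest core subunit, was at 20.7, 20.4 and 20.9 FPKM in KO-titled libraries, against 22.3, 24.5 and 21.8 FPKM in WT-titled libraries (log2 fold change -0.14, limma adjusted p = 0.344). In each of these, every KO-titled library was lower. The accessory subunits Ndufa8 and Ndufv3 were also lower without overlap, at 90.8% and 90.5% of WT-titled libraries. These were the only 5 of the 38 complex I symbols without overlap. Over all tested genes 15.8% lay below without overlap and 65.7% were negative. Ndufa5, an accessory subunit, had the most positive value of complex I (log2 fold change 0.10, limma adjusted p = 0.477).

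In complex III the most negative value belonged to Uqcrc1, a core protein, at 149.0, 127.8 and 134.4 FPKM in KO-titled libraries, against 154, 166 and 148.9 FPKM in WT-titled libraries. The log2 fold change reached -0.19 with an SE of 0.07 (limma adjusted p = 0.264), and KO-titled replicate 1 lay just above the lowest WT-titled library. Cyc1 was at 19.3, 17.4 and 19.0 FPKM in KO-titled libraries, against 20.9, 20.5 and 20.7 FPKM in WT-titled libraries, without overlap (log2 fold change -0.15, limma adjusted p = 0.294). Uqcrq, a small ubiquinone-binding subunit, was the single member with all KO-titled libraries above, at 73.0, 72.3 and 73.8 FPKM, against 71.1, 67.5 and 70.4 FPKM in WT-titled libraries (log2 fold change 0.07, limma adjusted p = 0.515). Uqcr10 was at 154 ± 5.18 FPKM in KO-titled libraries and 155 ± 13.8 FPKM in WT-titled libraries.

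Within complex IV, Cox6a1, the general form of subunit 6a, was at 163, 155 and 156 FPKM in KO-titled libraries, against 177, 171 and 193 FPKM in WT-titled libraries. No libraries overlapped, with a log2 fold change of -0.19 and an SE of 0.06 (limma adjusted p = 0.192). Of the pair genes, log2 fold changes were -0.13 for Cox6b1 (limma adjusted p = 0.288), -0.14 for Cox8a (limma adjusted p = 0.394) and -0.08 for Cox8c (limma adjusted p = 0.451). Cox6b2, Cox7b2 and Cox7b had values of -0.05, -0.03 and 0.04, and Cyct and Cycs of 0.08 and -0.04, with limma adjusted p = 0.552 to 0.808 over these 5. The 4 testis isoforms summed to 1531 ± 35.6 FPKM in KO-titled libraries and 1590.3 ± 21.5 FPKM in WT-titled libraries, or 96.3%. The 4 general partners summed to 105 ± 4.22 FPKM in KO-titled libraries and 114 ± 4.17 FPKM in WT-titled libraries, or 92.2%. Cox7a2 had the most positive value of the complex (log2 fold change 0.11, limma adjusted p = 0.376).

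**Figure D4:**
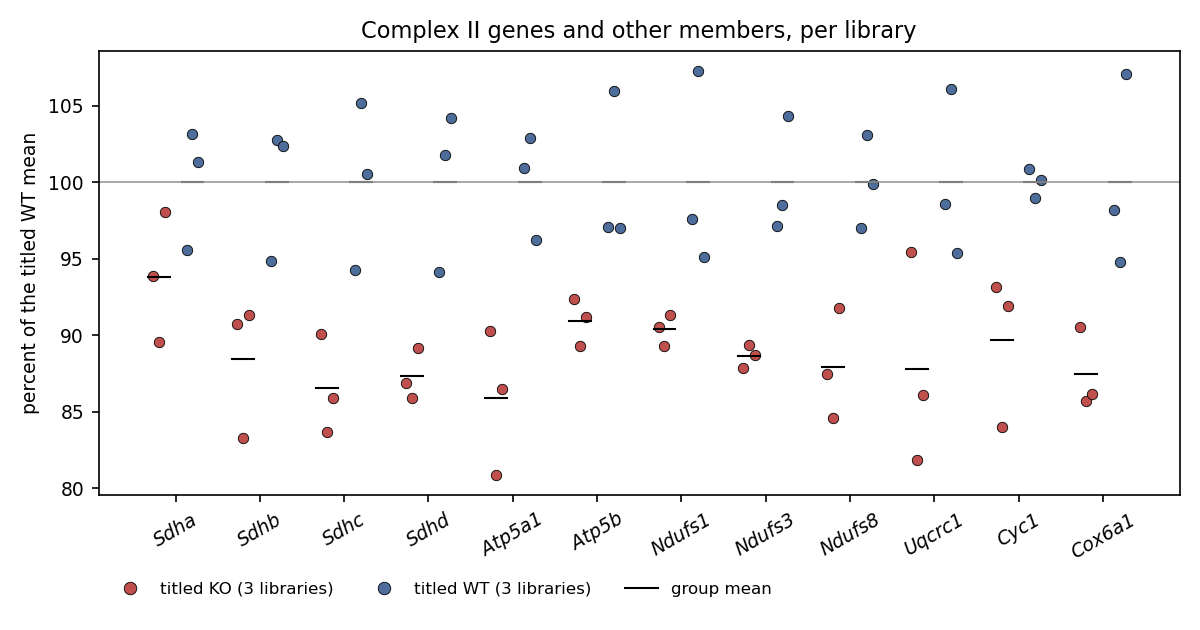
Level in each library as percent of the WT-titled mean, KO-titled libraries to the left of WT-titled libraries, for the genes of complex II and for 8 other members described in the text, with group means as bars. These 8 are all among the 16 members lower at a limma unadjusted p under 0.05, while the median log2 fold change over all tested members was -0.04. Means of KO-titled libraries lie between 85.9% (Atp5a1) and 93.8% (Sdha), and the groups overlap for Sdha and Uqcrc1.

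Among assembly factors the 2 with the smallest p were Ndufaf1, a complex I factor, and Ndufaf8. Ndufaf1 was at 6.86, 6.24 and 6.22 FPKM in KO-titled libraries, against 6.99, 7.93 and 7.36 FPKM in WT-titled libraries (log2 fold change -0.18, limma adjusted p = 0.288). Ndufaf8 was at 38.0, 37.5 and 40.2 FPKM in KO-titled libraries, against 40.3, 41.8 and 43.5 FPKM in WT-titled libraries (log2 fold change -0.12, limma adjusted p = 0.378). Both were lower in every KO-titled library. The most positive value of any member, 0.21, belonged to Sdhaf3, a complex II factor, with a standard error of 0.17.

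The X chromosome is largely silenced in male meiosis, and 3 members are X-linked. Ndufa1 was at 35.6 ± 1.01 FPKM in KO-titled libraries and 35.1 ± 0.625 FPKM in WT-titled libraries (SD, n = 3 each). Ndufb11, like Ndufa1 a small complex I subunit, was at 11.2 ± 0.520 FPKM in KO-titled libraries and 11.96 ± 1.42 FPKM in WT-titled libraries. With Cox7b, their log2 fold changes ran from -0.08 to 0.04 (limma adjusted p = 0.648 to 0.865), and none was called.

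Coding length went with the size of the difference across members, a pattern noticed after the values were seen. Spearman's rank correlation between coding length and log2 fold change was -0.35 over 94 members and -0.07 over all tested genes with a coding length. All 15 members with more than 900 coding bases had negative values, with a median of -0.12, and the 79 shorter ones had a median of -0.04. Over all tested genes 71.9% of those above this length were negative. Leaving out single libraries left 12 to 14 of the 15 negative. The count by length was not repeated under other scalings, and with median-of-ratios scaling 46 of all 98 members were negative. These genes share their libraries and are not independent replicates.

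The least even values within a group of any complex I gene were those of Ndufs5. Ndufs5, a complex I subunit on chromosome 4, was at 51.8, 53.7 and 58.8 FPKM in KO-titled libraries, against 75.3, 44.7 and 74.4 FPKM in WT-titled libraries. The difference on the log2 scale was -0.20 (SE 0.22, limma adjusted p = 0.666), the most negative of complex I, and without WT-titled replicate 2 it was -0.45 (limma adjusted p = 0.0211). The symbol Ndufs5-ps was at 30.9, 36.9 and 31.8 FPKM in KO-titled libraries, against 9.30, 44.5 and 24.2 FPKM in WT-titled libraries, and was highest in the library where Ndufs5 was lowest. Their sum was 82.6, 90.6 and 90.7 FPKM in KO-titled libraries, against 84.6, 89.2 and 98.7 FPKM in WT-titled libraries. The groups overlapped in the sum, which was taken after these values were seen. RefSeq annotates Ndufs5-ps as a transcribed pseudogene, its sequence was not compared with Ndufs5 here, and a division of reads between them was not tested.

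**Figure D5:**
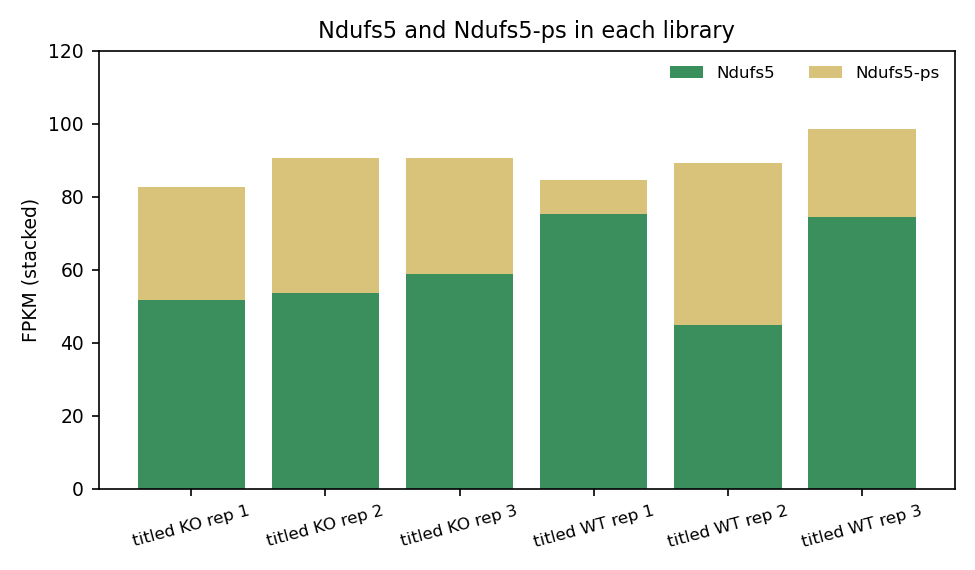
FPKM of Ndufs5 and of Ndufs5-ps stacked in each library, KO-titled libraries left of WT-titled libraries. Ndufs5 alone runs between 44.7 and 75.3 FPKM in WT-titled libraries, while the stacked sums of all 6 libraries lie between 82.6 and 98.7 FPKM.

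Ndufb4c and Ndufa11b, which the rule includes by name, are annotated as processed pseudogenes in GENCODE M21. The transcript of Ndufb4c matches Ndufb4 with 100% identity and that of Ndufa11b matches Ndufa11 with 94.8% identity, both over their full length. Ndufb4c was at 15.6 ± 0.509 FPKM in KO-titled libraries and 14.8 ± 0.882 FPKM in WT-titled libraries, and Ndufb4 at 100.9 ± 2.95 and 96.3 ± 6.30 FPKM (SD, n = 3 each). Ndufa11b was at 8.61 ± 0.336 FPKM in KO-titled libraries and 8.66 ± 0.802 FPKM in WT-titled libraries, about the level of Ndufa11 itself, 7.35 ± 0.368 and 7.69 ± 0.117 FPKM. Exons of 25 members overlap a gene on the opposite strand, among them Atp5a1 with Haus1 and Ndufs3 with Kbtbd4, with a strand setting of the counting not given in the sources used here. Log2 fold changes were -0.04 for Haus1 and -0.06 for Kbtbd4. The longest such overlaps with a partner in the tables were those of Uqcrc2 with Pdzd9 and of Ndufa13 with Tssk6. Log2 fold changes were -0.12 for Uqcrc2 and -0.15 for Pdzd9, and -0.01 for Ndufa13 and -0.13 for Tssk6, whose mean was 252 FPKM. Shmt2, which overlaps Ndufa4l2, had a value of -0.10. The part of these overlaps in the members' values was not tested. Transcripts of Cox6a1, Ndufs3, Ndufb11, Ndufaf2 and Sdhaf1 match another annotated gene with at least 90% identity over at least 50% of their length, and those copies were not analysed here.

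Libraries of one group differed little for most members. The median coefficient of variation was 4.13% in KO-titled libraries and 5.23% in WT-titled libraries, and 92 and 84 of the 98 members were under 10%. The widest were Cox7a1 in KO-titled libraries (43.4%) and Sdhaf3 in WT-titled libraries (27.7%). WT-titled replicate 3 held the highest value of 32 members and WT-titled replicate 2 of 31, while KO-titled replicate 2 held the lowest value of 30. Ndufa12, an accessory subunit of complex I, was at 67.3 FPKM in WT-titled replicate 3 and between 45.7 and 53.5 FPKM elsewhere.

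Other genes that serve the respiratory chain were counted from lists. Of 15 tested assembly factors of complex IV, 1 was lower and 0 higher by limma. This was Sco2, a copper chaperone for complex IV, at 5.76, 6.01 and 5.79 FPKM in KO-titled libraries, against 7.65, 7.28 and 7.63 FPKM in WT-titled libraries, without overlap (log2 fold change -0.31, SE 0.06, limma adjusted p = 0.0397). The call ended in 11 alternative settings. Among them were each single library left out (limma adjusted p = 0.0732 to 0.153), median-of-ratios (0.0792) and upper-quartile scaling (0.0614), and no filter on low values (0.0746). Exons of Sco2 overlap Tymp and Ncaph2. Among 18 tested genes of pyruvate dehydrogenase and the citric acid cycle none was called (at an unadjusted p under 0.05, 0 higher and 1 lower). All 18 values were negative, from -0.18 to -0.02 with a median of -0.10, where all tested genes were negative in 65.7% with a median of -0.04. With median-of-ratios scaling the median of all tested genes was -0.0030, and signs in this list were not counted there. The gene lower at an unadjusted p under 0.05 was Fh1, the fumarase gene, whose enzyme uses the fumarate that complex II makes. It was at 12.1 ± 0.183 FPKM in KO-titled libraries and 13.9 ± 0.654 FPKM in WT-titled libraries (SD, n = 3 each, limma adjusted p = 0.219). Of 13 tested carriers and channels of the mitochondrial membranes 0 were called (at an unadjusted p under 0.05, 0 higher and 3 lower). The 3 were Slc25a1, Vdac1 and Slc25a4, and 8.89% of all tested genes were lower by this measure. None of 10 tested genes of coenzyme Q synthesis, 5 of complex III assembly and 13 of mitochondrial biogenesis was called. The last list holds genes of mitochondrial DNA expression and regulators such as Nrf1 and Gabpa. At an unadjusted p under 0.05, 1 gene of coenzyme Q synthesis (Coq2) was lower, and 0 of complex III assembly were higher or lower. In the list of mitochondrial biogenesis 1 was higher and 1 lower, and 9 of 13 values were negative. The higher one, Tfam, which packs and transcribes mitochondrial DNA, was at 23.9 ± 1.38 FPKM in KO-titled libraries and 20.7 ± 1.499 FPKM in WT-titled libraries, without overlap (log2 fold change 0.20, limma adjusted p = 0.246). The lower one, Tfb2m, a mitochondrial transcription factor, was at 4.16 ± 0.315 FPKM in KO-titled libraries and 4.84 ± 0.235 FPKM in WT-titled libraries, also without overlap (log2 fold change -0.18, limma adjusted p = 0.295).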

How the data were processed

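RNA was measured in 6 mouse testis libraries, 3 per title. Per the submitters' processing notes the tools and build were HISAT2 and mm10, with quantifier, annotation and strandedness not given in the sources used here. The deposited numbers behave as FPKM, scaled by the authors to length and depth. Low values of single-transcript genes fell at whole multiples of one step (within 0.02 on the log10 scale), which gave the depth. Floors cover counting error only. Rows were summed per symbol (333 symbols had several). Of the 102 members, 100 were placed by GENCODE M21 and 2 by RefSeq (GRCm38).

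Genes averaging 1 FPKM or more in either group entered limma 3.58.1 (R 4.3.3, trend and robust options) on the scale log2(FPKM + 1), with a Benjamini-Hochberg threshold of 0.05. The design assumed counts or FPKM, and the FPKM test was used. This scale understates changes of low genes. Isoform ratios were compared by exact permutation. Near copies were sought with BLAST 2.17.0 (90% identity over 50% of the longest transcript), exon overlaps with bedtools 2.31.1. The limma fit was tested on simulated data. The members and lists were chosen with earlier results of these data known. Genes given with values were the deleted gene, both genes of each pair, the highest and the most changed of each complex, isoforms of other tissues, X-linked members, those with an unadjusted p under 0.05, and the smallest p of assembly factors. Motifs, promoter windows and the length comparison were chosen after values were seen. Correlations of deviations between libraries with the same replicate number were 0.065, -0.13 and 0.061, against -0.25 to 0.20 for differing numbers. These values cannot show whether the libraries were paired.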

Additional observations from a re-analysis of the deposited data

How the results depend on the processing

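The count of called members was 0 under 11 alternatives in all 6 libraries (pseudocount of 0.1, 3 other filters, 3 other scalings, no robust estimation, a threshold of 0.1, the replicate block and only symbols on a single row). It ran from 0 to 1 with single libraries left out, the 1 being Ndufs5 without WT-titled replicate 2. Over all genes 149 were called, against 88 without a filter, 274 at a threshold of 0.1, 50 with the replicate block, and 73 to 233 with single libraries left out. With the replicate block 10 members (10.2%) were lower at an unadjusted p under 0.05, where all genes gave 6.01% lower, and the call of Sco2 ended (limma adjusted p = 0.172). Numbers alone do not show that the libraries are paired. Isoform ratios are within-library values, which scaling and filters barely move. With single libraries left out they ran between 0.079 and 0.18 for Cyct over Cycs, 0.047 and 0.13 for Cox6b2 over Cox6b1, -0.10 and -0.038 for Cox7b2 over Cox7b, and 0.00029 and 0.14 for Cox8c over Cox8a, which was close to 0 without KO-titled replicate 2 (0.00029) and without WT-titled replicate 3 (0.00097). Of 594 single-gene values 12 turned direction, in 5 of 35 genes and in none called. With median-of-ratios scaling Cox7b2 was at 0.017, Cycs at 0.0027 and Uqcr10 at 0.037, and with upper-quartile scaling Cox7b2 was at 0.0022 and Uqcr10 at 0.022. With single libraries left out Cox7b2 ran from -0.070 to 0.016, Uqcr10 from -0.045 to 0.063, Cox7a1 from -0.19 to 0.26 and Ndufb11 from -0.12 to 0.010. The cause was not tested. Depth limits little here, since 94 of 98 members passed a filter of 5 FPKM.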

Other observations

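Testis forms were also abundant for mitochondrial proteins outside the respiratory complexes. Pdha2, the autosomal germ cell gene for the E1 alpha subunit of pyruvate dehydrogenase, was at 59.8 ± 1.54 FPKM in KO-titled libraries and 60.6 ± 2.04 FPKM in WT-titled libraries (SD, n = 3 each). Its X-linked counterpart Pdha1 was at 1.80 ± 0.263 FPKM in KO-titled libraries and 2.11 ± 0.199 FPKM in WT-titled libraries. Pdha2 thus held 97.1% ± 0.450 of this pair in KO-titled libraries and 96.6% ± 0.411 in WT-titled libraries. The ADP/ATP carriers were more evenly shared. Slc25a31, the germ cell form, was at 22.2 ± 1.09 FPKM in KO-titled libraries and 24.1 ± 0.533 FPKM in WT-titled libraries, beside Slc25a5, the X-linked general form, at 25.7 ± 0.484 and 28.1 ± 2.71 FPKM, and for both every KO-titled library was lower. None of these 4 genes was called by limma (adjusted p = 0.393 to 0.874). Uqcc2, an assembly factor of complex III, stood far above the other factors of its list, at 396 ± 14.6 FPKM in KO-titled libraries and 404 ± 25.6 FPKM in WT-titled libraries, while Ttc19 of the same list was listed at 0 in all 6 libraries.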
